A study of Mus musculus with 14 samples.

Results

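Liver RNA was examined for 8 genes through which a hepatocyte takes up glucose and fructose and breaks them down. They were Slc2a2, Gckr, Khk, Gpi1, Pfkl, Gapdh, Pklr and Mlxipl. All 8 were found among the 17552 genes of the expression table. They were named for their place in the pathway, but with earlier results of these data known, so they are not an unbiased sample of it. The mice were Apoe-deficient males on a C57BL/6 background, labelled as 8 weeks of age. Without apolipoprotein E these animals clear lipoproteins poorly and develop fatty liver. One group received a Western diet, rich in fat and cholesterol, and the other the same diet with erythrodiol, a pentacyclic triterpene of the olive, at 10 mg/kg. The labels give 8 weeks on the diets, and the study's methods a longer time. Since the labelled age equals the labelled time on the diets, it may be the age at the start of feeding. The age at sampling is not given. Each group was sequenced as 7 libraries, and each library was a pool of liver RNA from a few mice. No wild-type group was part of the comparison, and the study's Apoa1-deficient mice, females and other doses were not analysed here. For each gene the deposit holds a single expected count in either group, summed over its 7 libraries. An expected count is the number of read pairs that the counting program assigns to a gene. It need not be whole where reads are shared between genes. The gene values therefore had no replicate check and no test, and intervals given below are 95% counting intervals of the 2 sums, which hold no spread between mice or libraries.

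Glucose and fructose enter the hepatocyte through GLUT2, the facilitative carrier encoded by Slc2a2, which works in both directions. The protein encoded by Gckr restrains the phosphorylation of glucose at low sugar, and fructose 1-phosphate lifts this restraint. Glucose phosphate isomerase (Gpi1), the liver phosphofructokinase (Pfkl), glyceraldehyde 3-phosphate dehydrogenase (Gapdh) and the liver and red cell pyruvate kinase (Pklr) carry the sugar down to pyruvate. Fructose is phosphorylated by ketohexokinase (Khk) and bypasses the phosphofructokinase step. Mlxipl encodes ChREBP, the transcription factor that pairs with Mlx and switches on glycolytic and lipogenic genes when sugar is plentiful. Its binding element is a pair of E-box-like motifs set 5 bases apart.

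The binding letters of this factor were looked for in the 250 bases before each RefSeq start site of GRCm38.p6, which gave 10 windows for the 8 genes, since Mlxipl and Pklr each have a pair of starts. The paired element, searched as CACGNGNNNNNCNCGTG, was found in 1 window, the one before the downstream start of Pklr. That start lies 481 bases from the upstream one and gives the liver form, while the upstream one gives the red cell form. Over all genes, 13 of 32851 windows held the paired element, a share of 0.0396%. The plain E-box, CACGTG, was found in 2 windows, that of Khk and that of the upstream Mlxipl start, against 6.02% of all windows. The upstream Mlxipl start lies 17001 bases before the other and is known as the start of the beta form of ChREBP. Both motifs read the same on the 2 strands, and the 2 searches found no shared site here. The stretches that hold them are shown because the Pklr one holds the letters of the paired element and the other 2 the single E-box. Each is on the plus strand, with the motif in capitals.
Pklr (chr3:89136373-89136571): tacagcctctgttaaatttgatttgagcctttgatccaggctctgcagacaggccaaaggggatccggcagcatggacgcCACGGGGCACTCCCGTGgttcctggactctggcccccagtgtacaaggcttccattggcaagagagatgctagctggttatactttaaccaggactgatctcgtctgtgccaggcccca
Mlxipl (chr5:135089640-135089889): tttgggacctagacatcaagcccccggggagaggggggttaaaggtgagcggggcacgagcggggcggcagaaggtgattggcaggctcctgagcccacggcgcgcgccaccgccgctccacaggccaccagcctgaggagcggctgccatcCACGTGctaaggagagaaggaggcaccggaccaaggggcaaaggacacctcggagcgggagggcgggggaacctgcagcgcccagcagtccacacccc
Khk (chr5:30921476-30921505): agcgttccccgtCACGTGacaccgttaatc
The Pklr element began 170 bases before its start, the Mlxipl E-box 98 bases before and the Khk E-box 71 bases before. For Khk only 30 bases are given, since the E-box lies inside an exon that GENCODE M21 annotates for transcripts with an earlier start. A match of letters is a description and not a measured binding site.

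The control libraries held between 34856340 and 55244294 clean reads (median 48008204) and the erythrodiol libraries between 47669656 and 48058606 (median 47982680). In the 7 control libraries, 76.66% to 94.64% of clean reads mapped to the genome and 64.33% to 81.43% to genes. In the 7 erythrodiol libraries these rates were 93.48% to 94.55% and 72.96% to 76.13%. The lowest rates on both measures were those of control replicate 3, which gave 9.12% of the read pairs that the control group mapped to genes, and no gene sum could be computed without it. All genes together came to 122889032 expected counts for control and 124686047 for erythrodiol. Apoe itself had 9403 counts in control livers and 8293 with erythrodiol, and the table does not say on which exons. Hepatocyte markers were plentiful, since 10 of 10 had between 57911 and 9898790 control counts. In whole liver, fewer cells of a type and less RNA per cell cannot be told apart.

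All comparisons below are ratios of erythrodiol over control after each sum was divided by the total of its group, and a log2 ratio of 0.263 is the 1.2-fold limit used for calls. On this scale 33.7% of the 13291 genes with at least 100 counts in both groups together were past 1.2-fold higher, and 11.4% were past 1.2-fold lower. The median log2 ratio of these genes was 0.16 and not 0. It rose with gene length, from -0.18 among genes of 333 to 1211 bases to 0.33 among genes of 6116 to 26655 bases. The 50 genes of most counts took 38.8% of the control total and 34.4% of the erythrodiol total. For this reason the ratios of the 8 genes and the counts over the pathway lists are also given relative to the median of the 500 genes nearest in length, and so are single ratios of other named pathway genes where this changes their call. Against that median, 9.53% of all genes were past 1.2-fold higher and 17.7% past 1.2-fold lower.

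**Figure D1:**
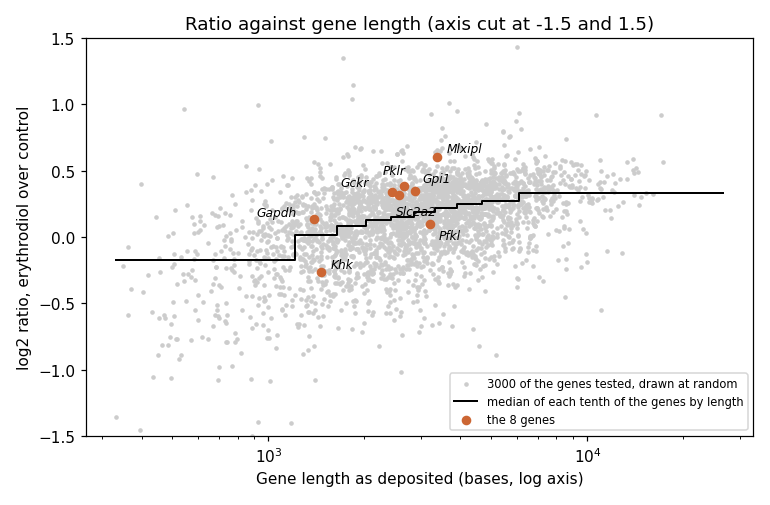
Log2 ratio of erythrodiol over control (vertical axis, scaled by group totals) against gene length in bases (log axis), with 3000 background genes in grey, the median of each of 10 length classes as a black line and the 8 genes in orange. Mlxipl lies at 0.60 above the line for its length, Khk at -0.27 below it, and Pfkl at 0.10 under a local median of 0.20.

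Of the 8 genes, 5 were past 1.2-fold higher with erythrodiol (Mlxipl, Pklr, Gpi1, Gckr and Slc2a2), 1 was past 1.2-fold lower (Khk), and Gapdh and Pfkl were within the limit. The background share for the higher direction was 33.7%. Relative to genes of like length, 1 of the 8 was past 1.2-fold higher (Mlxipl) and 1 past 1.2-fold lower (Khk). At 1.1-fold, where 53.6% of all genes were higher and 17.8% lower, the same 5 and 1 were called. At 1.5-fold, where 2.55% of all genes were higher and 3.14% lower, Mlxipl was higher and none of the 8 was lower. At 2-fold, where 0.218% and 0.549% of all genes were higher and lower, none of the 8 was called. The median log2 ratio of the 8 was 0.33, against 0.16 over all genes, and 0.17 once genes of like length were subtracted. Together the 8 genes took 0.327% of the control total and 0.378% of the erythrodiol total. All 8 had far more than 100 counts, so no member was lost to the minimum.

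**Figure D2:**
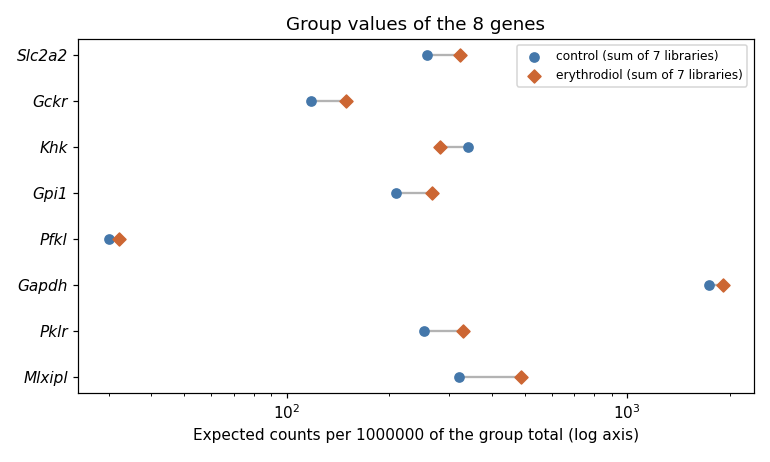
Expected counts per 1000000 of the group total (log axis) for the 8 genes, with the sum of 7 control libraries as a blue circle and the sum of 7 erythrodiol libraries as an orange diamond. The orange point lies to the right for every gene but Khk, and the widest gap in the higher direction is that of Mlxipl.

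Mlxipl lies on chromosome 5 of GRCm38.p6 from 135089890 to 135139768 (gene ID 58805). It had 39373 counts in control livers and 60749 with erythrodiol. The log2 ratio was 0.60, with an interval of 0.59 to 0.62, which is 1.52-fold higher, and 97.8% of all genes had a lower ratio. This was 0.39 above genes of like length, and 96.2% of those 500 genes lay lower. Its dimer partner Mlx had 3340 and 3590 counts for control and erythrodiol, respectively, a log2 ratio of 0.08. The paralogue Mlxip, which encodes MondoA, had 1582 and 1901 counts, a log2 ratio of 0.24. Thus the counts of Mlxipl per count of Mlx were 11.8 in the control and 16.9 with erythrodiol, and the log2 ratio of Mlxipl exceeded that of Mlx by 0.52 (interval 0.45 to 0.59). Txnip, which encodes a brake on glucose uptake and is a known ChREBP target, had 12112 and 13734 counts and a log2 ratio of 0.16, equal to the median of all genes.

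The authors' transcript assembly, pooled over all libraries of both groups, held 3 assembled coding transcripts of Mlxipl. Among these, 2 began at the upstream start, with 17 and 18 exons, and another began inside the gene and had 10 exons. Of the junctions of these transcripts, 2, 1 and 1 were not in GENCODE M21. The assembly gives no values per group, so the sum of Mlxipl cannot be split between its 2 starts.

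Slc2a2, the sugar carrier of the hepatocyte, lies on chromosome 3 from 28697903 to 28728361 (gene ID 20526). It had 31806 counts in control livers and 40105 with erythrodiol, a log2 ratio of 0.31 (interval 0.29 to 0.33) or 1.24-fold higher. This was 0.16 above genes of like length, of which 78.4% had a lower ratio. The list of sugar carriers held 12 genes, of which 8 had at least 100 counts. Of these 8, 3 were past 1.2-fold higher and 2 lower, against 33.7% and 11.4% of all genes. Relative to genes of like length 1 was higher and 2 were lower, against 9.53% and 17.7%. The highest ratio of this list was that of Slc2a5, the fructose carrier, with 755 counts in control livers and 1154 with erythrodiol and a log2 ratio of 0.59 (interval 0.46 to 0.73). Its level was low beside Slc2a2, at 3.87 against 165 per 1000000 in the control on the scale of counts per base of length. Slc2a1, the widely expressed glucose carrier, had 1314 and 1507 counts and a log2 ratio of 0.18. Slc2a9, a carrier of urate and sugars, had 4436 and 4936 counts and a log2 ratio of 0.13. The lowest ratio was that of Slc2a6, with 256 and 158 counts and a log2 ratio of -0.72 (interval -1.01 to -0.43). It stood on few counts, as its wide interval shows.

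Gckr, the regulator of glucose phosphorylation, lies on chromosome 5 from 31297266 to 31327302 (gene ID 231103). It had 14449 counts in control livers and 18562 with erythrodiol, a log2 ratio of 0.34 (interval 0.31 to 0.37) or 1.27-fold higher. The ratio was 0.18 relative to genes of like length.

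Hexokinases of other tissues had few counts. Hk1 had 559 and 608 counts, a log2 ratio of 0.10. Hk2 had 446 and 375 counts, a log2 ratio of -0.27 (interval -0.47 to -0.07). Hk3, a hexokinase of blood and immune cells, had 1612 and 1331 counts, a log2 ratio of -0.30 (interval -0.40 to -0.19) and the lowest of its list. Over the 6 genes of this list with at least 100 counts, 1 was past 1.2-fold higher (Gckr) and 2 were lower (Hk2 and Hk3). The shares of all genes were 33.7% and 11.4%, and the median of the list was 0.06. On the like-length scale none was higher and the same number, 2, was lower, against 9.53% and 17.7%. The assembly included 4 coding transcripts of Gckr, of 15 to 18 exons, and each kept at least 1 annotated intron. The fullest kept 5 introns. Reads from unspliced or intron-keeping Gckr transcripts cannot be told apart from spliced ones in the gene sum.

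Khk, the entry enzyme of fructose breakdown, lies on chromosome 5 from 30921436 to 30931248 (gene ID 16548). It had 41744 counts in control livers and 35168 with erythrodiol. The log2 ratio was -0.27 (interval -0.29 to -0.25), which is 1.204-fold lower and just past the limit, and 11.2% of all genes had a lower ratio. The value relative to genes of like length was -0.30, and 19.4% of those lay lower. Of the 6 genes of fructose breakdown, 3 had ratios above 0 and 3, Khk among them, below 0. Akr1b3, also below 0, had 2082 and 1776 counts and a log2 ratio of -0.25, within the limit. Another enzyme of the route and an enzyme that feeds it were above 0. Tkfc, the triokinase, had 40494 and 48633 counts and a log2 ratio of 0.24. Sord, which makes fructose from sorbitol, had 140660 and 187115 counts and the highest log2 ratio of the list, 0.39.

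Set against these partners, Khk was lower in both pairings. Counts of Khk per count of Tkfc were 1.03 in the control and 0.723 with erythrodiol, a log2 difference of -0.51 (interval -0.54 to -0.48). Per count of Sord they were 0.297 and 0.188, a difference of -0.66. With genes of like length subtracted from both partners these differences were -0.40 and -0.58. In all, 6 genes of fructose breakdown were measured, and 2 were past 1.2-fold higher and 1 lower, against 33.7% and 11.4% of all genes. On the like-length scale 1 was higher and 1 lower, against 9.53% and 17.7%. Of the 3 genes whose promoter stretches are shown, Khk had a ratio below 0 and Pklr and Mlxipl had ratios above 0.

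**Figure D3:**
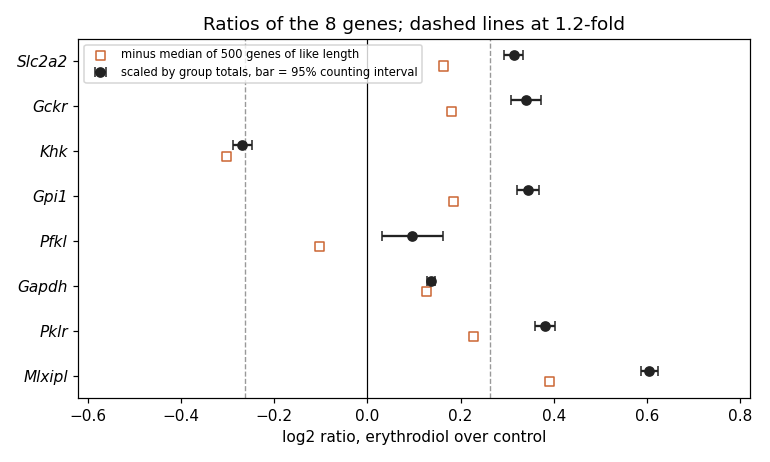
Log2 ratio of erythrodiol over control for the 8 genes, scaled by group totals (black points with 95% counting intervals) and relative to the median of 500 genes of like length (open squares), with dashed lines at 1.2-fold. Mlxipl lies past the right line and Khk past the left line on both scales, while Slc2a2, Gckr, Gpi1 and Pklr cross the right line on the scale of group totals alone.

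Gpi1, the isomerase that turns glucose 6-phosphate into fructose 6-phosphate, lies on chromosome 7 from 34201327 to 34230336 (gene ID 14751). It had 25761 counts in control livers and 33205 with erythrodiol, a log2 ratio of 0.35 (interval 0.32 to 0.37) or 1.27-fold higher, and 0.18 relative to genes of like length. Pfkl, which commits the sugar to glycolysis, lies on chromosome 10 from 77986947 to 78009807 (gene ID 18641). It had 3696 and 4009 counts, a log2 ratio of 0.10 (interval 0.03 to 0.16), and it lay below genes of like length by -0.10. Counts of Pfkl per count of Gpi1 were 0.143 in the control and 0.121 with erythrodiol, a log2 difference of -0.25 (interval -0.32 to -0.18).

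The muscle and platelet isozymes of phosphofructokinase were rarer than Pfkl. Pfkm had 1706 counts in control livers and 2032 with erythrodiol, and Pfkp had 725 and 872. Their log2 ratios were 0.23 and 0.24, and 0.07 and 0.06 relative to genes of like length. The counts of Pfkl, Gpi1 and Gapdh were not whole, unlike those of the other 5 members, so some of their reads were shared with other genes. This adds an uncertainty to their values, and its size was not measured.

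The next list held the bifunctional enzymes that make and break down fructose 2,6-bisphosphate, the activator of phosphofructokinase, and Tigar, which only breaks it down. Of 5 measured, 4 were past 1.2-fold higher (Pfkfb1, Pfkfb2, Pfkfb3 and Tigar) and none lower, against 33.7% and 11.4% of all genes. The median log2 ratio was 0.45, and 0.16 relative to genes of like length. On the latter scale none was past the limit upwards and 1 was lower, against 9.53% and 17.7%. Pfkfb3 had 1551 and 2192 counts, a log2 ratio of 0.48 (interval 0.38 to 0.57) and 0.24 relative to genes of like length. Pfkfb4 had 307 and 294, a log2 ratio of -0.08 and -0.29 relative to genes of like length.

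Gapdh lies on chromosome 6 from 125161852 to 125166467 (gene ID 14433) and was the most abundant of the 8 genes. It had 213439 counts in control livers and 238084 with erythrodiol, a log2 ratio of 0.14 (interval 0.13 to 0.15). Its ratio lay close to the median of all genes, since 46.3% of them had a lower one, and was 0.13 above genes of like length. The enzymes on either side of it had ratios below 0. Tpi1, the triose phosphate isomerase, had 35929 and 30423 counts and a log2 ratio of -0.26, just within the limit and -0.31 relative to genes of like length. Pgk1, the phosphoglycerate kinase, had 32822 and 25539 counts and the lowest log2 ratio of the glycolytic list, -0.38 (interval -0.41 to -0.36). Counts of Gapdh per count of Pgk1 were thus 6.50 in the control and 9.32 with erythrodiol, a log2 difference of 0.52, and per count of Tpi1 they were 5.94 and 7.83, a difference of 0.40.

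Pklr, the last enzyme of glycolysis in hepatocytes, lies on chromosome 3 from 89136122 to 89146815 (gene ID 18770). It had 31094 counts in control livers and 41101 with erythrodiol, a log2 ratio of 0.38 (interval 0.36 to 0.40) or 1.303-fold higher. It was 0.23 above genes of like length, and 86.4% of them lay lower. The other pyruvate kinase gene, Pkm, which is used by most cells other than hepatocytes, had 5631 and 4529 counts and a log2 ratio of -0.34 (interval -0.39 to -0.28). Counts of Pklr per count of Pkm were 5.52 in the control and 9.08 with erythrodiol, a log2 difference of 0.72 (interval 0.66 to 0.78). This was the widest difference among the pairs of isozymes and partners compared, and it was 0.71 with genes of like length subtracted.

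Some markers of cells other than hepatocytes were lower in the same direction as Pkm, Hk2, Hk3 and Slc2a6. Over all genes 33.7% were past 1.2-fold higher and 11.4% lower, or 9.53% and 17.7% on the like-length scale. Of 10 hepatocyte markers 4 were higher and 2 lower, Asgr1 at -0.30 and Tdo2 at -0.60, or 1 and 2 on the like-length scale. All 6 Kupffer cell markers were past 1.2-fold lower, with log2 ratios from -1.07 to -0.48. None was at 0, and their summed level was 869 per 1000000 counts in control livers and 535 with erythrodiol. All 3 neutrophil markers with at least 100 counts were lower, with a summed level of 12.7 and 4.94 per 1000000 over the 6 of the list. Under the minimum, Ly6g had 38.98 and 45.45 counts, Elane 24 and 14, and Mpo 13 and 3. Of 5 bile duct cell markers 4 were lower, with a summed level of 116 and 79.1 per 1000000. Their part in the ratios of Pkm, Hk2, Hk3 and Slc2a6 was not tested. Red cells use the upstream start of Pklr. Of 6 erythroid markers 5 were past 1.2-fold lower, and 3 relative to genes of like length, with none at 0 and a summed level of 1264 and 929 per 1000000. Their part in the ratio of Pklr was not tested. Endothelial cell markers (178 and 183 per 1000000), stellate cell markers (445 and 429) and lymphocyte markers (6.68 and 6.71) stood near the same summed level in both groups. Of their single markers, Kdr of endothelial cells was past 1.2-fold higher at 0.33 and Cd3g of lymphocytes lower at -0.46. Relative to genes of like length, 2 stellate and 2 lymphocyte markers were lower and 1 lymphocyte marker was higher. Markers of exocrine pancreas were at 14.1 and 9.68 per 1000000, most of it Cela1 with 1574 and 1113 counts. Amy2a5 had 124 and 22.5 counts, a log2 ratio of -2.48. The rest of that list was under the minimum. There Ctrb1 had 8 and 42 and Cela3b 3 and 11, while Prss2 had 15 and 8 and Pnlip 11 and 10. No marker of striated muscle reached 100 counts.

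A single assembled coding transcript of Pklr was deposited. It had 12 exons and joined an upstream exon, of the red cell start, across a junction that GENCODE M21 lacks. Gapdh also had 1 such transcript, with 1 annotated intron kept, and the remaining 4 of the 8 genes had none. None of the 8 was among the 16 genes for which differential splicing events were deposited.

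Levels of the 8 genes can be ordered within a group once counts are divided by gene length and scaled to a sum of 1000000. In the control the order was Gapdh at 2052, Khk at 381, Slc2a2 at 165, Pklr at 156, Mlxipl at 155, Gpi1 at 119, Gckr at 79.2 and Pfkl at 15.4. Pklr and Mlxipl did not differ beyond counting error, since the level of Mlxipl per level of Pklr was 0.996 (interval 0.981 to 1.01). With erythrodiol the order was Gapdh at 2507, Khk at 352, Mlxipl at 263, Slc2a2 at 228, Pklr at 226, Gpi1 at 168, Gckr at 111 and Pfkl at 18.3. Mlxipl thus stood above Slc2a2, where in the control it had stood below it, and Slc2a2 and Pklr did not differ beyond counting error (level ratio 1.01, interval 0.997 to 1.03). Ratios between groups on this scale are higher by 0.15 in log2 than on the scale of group totals, for every gene alike, because the sum of counts per base moved too.

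**Figure D4:**
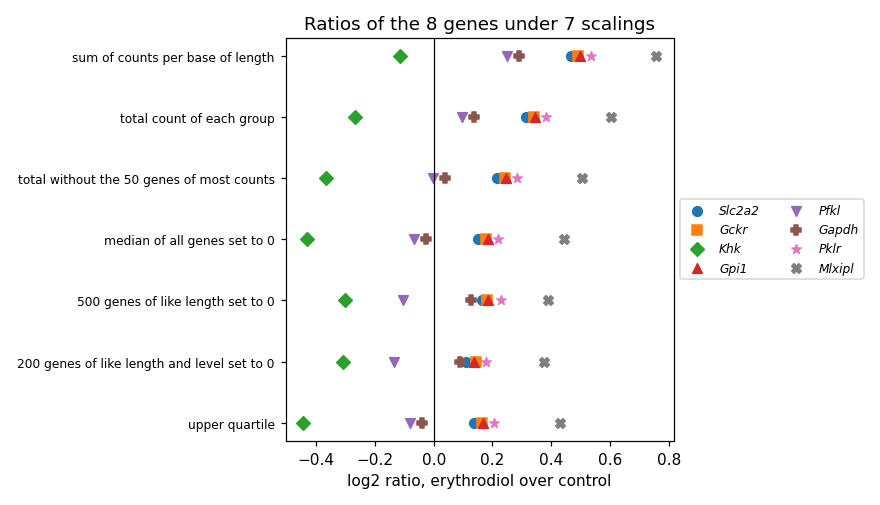
Log2 ratio of erythrodiol over control for the 8 genes (symbols) under 7 ways of setting the zero (rows). Mlxipl, Pklr, Gpi1, Gckr and Slc2a2 lie right of 0 and Khk left of 0 in every row, while Pfkl and Gapdh change sides.

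The sign of 6 genes was the same under each scaling tried. Over 8 scalings, the log2 ratio of Mlxipl ran from 0.37 to 0.76, that of Pklr from 0.18 to 0.53, that of Gckr from 0.14 to 0.49, that of Gpi1 from 0.14 to 0.50 and that of Slc2a2 from 0.11 to 0.47. For Khk it ran from -0.44 to -0.12. Gapdh ran from -0.04 to 0.29, below 0 in 2 of the 8 scalings, and Pfkl from -0.13 to 0.25, below 0 in 6 of the 8. Mlxipl kept the highest and Khk the lowest value of the 8 genes on each of the 7 scalings drawn, and the ratio between genes of 1 table is the same on any scaling that shifts all genes alike.

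The other genes of the pathway were taken from 11 lists set by role, with 112 genes in all, of which 104 had at least 100 counts. Past 1.2-fold, 35 were higher and 11 lower, against background shares of 33.7% and 11.4%. Without the 8 members these counts were 30 higher and 10 lower of 96. The median log2 ratio was 0.16 with and without the 8, the same as over all genes. Relative to genes of like length, 10 were past 1.2-fold higher and 17 lower of the 104, against 9.53% and 17.7%. The shares of the pathway as a whole were thus near those of all genes.

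**Figure D5:**
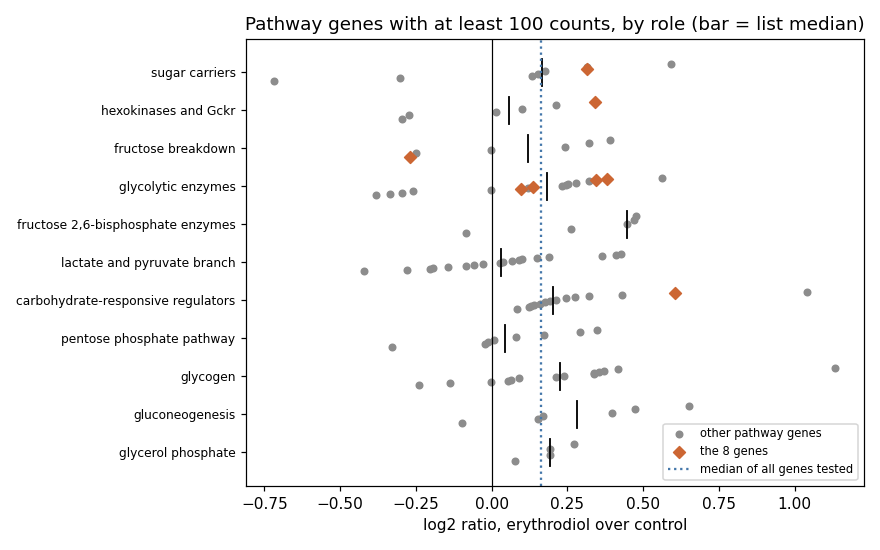
Log2 ratio of erythrodiol over control for pathway genes with at least 100 counts, 1 row for each of 11 lists by role, with the 8 genes as orange diamonds, other genes in grey, list medians as bars and the median of all genes, 0.16, as a dotted line. Onecut1 and Ppp1r3g lie past 1.0 to the right and Slc2a6 lies farthest to the left.

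Among glycolytic enzymes, 5 of 16 were past 1.2-fold higher and 3 lower, against 33.7% and 11.4% of all genes, with a median of 0.18. On the like-length scale 1 was higher and 4 lower, against 9.53% and 17.7%. Without the members the median of the remaining 12 was also 0.18, with 3 higher and 3 lower. Aldoc, the aldolase of brain, had the highest ratio of the list, with 598 and 896 counts and a log2 ratio of 0.56. Aldoa, the muscle aldolase, had 11893 and 14637 counts and a log2 ratio of 0.28 (0.25 on the like-length scale), and Eno1, the main enolase, had 55443 and 61197, a log2 ratio of 0.12. Eno1b shares reads with Eno1 and had 40.6 and 11.3 counts, which was under the minimum.

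Of 14 carbohydrate-responsive regulators, 5 were past 1.2-fold higher and none was lower, against 33.7% and 11.4% of all genes. All 14 had a log2 ratio above 0 on the scale of group totals, where the median of all genes also lay above 0. Their median was 0.20 against 0.16 over all genes, and -0.0045 relative to genes of like length. On the like-length scale 2 were past the limit upwards, Mlxipl and Onecut1, and none was lower, against 9.53% and 17.7%. Onecut1, a liver transcription factor also called HNF6, was past 2-fold, with 947 counts in control livers and 1975 with erythrodiol and a log2 ratio of 1.04 (interval 0.93 to 1.15). The lowest ratio of this list was that of Mlx, 0.08.

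Gluconeogenesis, the route opposed to glycolysis, had 3 of 6 genes past 1.2-fold higher and none lower, against 33.7% and 11.4% of all genes. The counts relative to genes of like length were also 3 and 0, against 9.53% and 17.7%. Pck1, the phosphoenolpyruvate carboxykinase, had 109728 and 174872 counts and a log2 ratio of 0.65 (interval 0.64 to 0.66), above that of every one of the 8 members. G6pc, which frees glucose for export, was also past the limit, as was Pck2. Slc37a4, the glucose 6-phosphate carrier, had 13954 and 13225 counts and a log2 ratio of -0.10. Counts of Pck1 per count of Pklr were 3.53 in the control and 4.25 with erythrodiol.

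In the glycogen list 6 of 14 genes were past 1.2-fold higher and none lower, against the background of 33.7% and 11.4%. But relative to genes of like length 1 was higher and 2 were lower, against 9.53% and 17.7%. The same background shares apply to the lists that follow. Ppp1r3g, which targets a phosphatase to glycogen, was past 2-fold on few counts, 101 and 225, with a log2 ratio of 1.13 (interval 0.79 to 1.49). Ppp1r3c, of the same family, had 8400 and 7219 counts and a log2 ratio of -0.24, or -0.39 on the like-length scale. In the lactate and pyruvate branch 3 of 18 were higher and 2 lower, or 1 and 4 on the like-length scale, and its ends were 2 kinases that switch off pyruvate dehydrogenase. Pdk2 had 11628 and 15861 counts, a log2 ratio of 0.43, and Pdk3 had 144 and 109, a log2 ratio of -0.42. In the pentose phosphate pathway 2 of 8 were higher and 1 lower, or 0 and 1 on the like-length scale, with Tkt, the transketolase, at 0.35 (0.14 on that scale) and Rpe, the epimerase, at -0.33. Of 4 genes of glycerol phosphate 1 was higher, Aqp9, the glycerol channel, at 0.27 (0.12 on the like-length scale), and the lowest was Gpd1, the glycerol phosphate dehydrogenase, at 0.08.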

How the data were processed

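The labels of the 14 polyA RNA libraries gave the groups, 7 libraries each, and the replicate numbers. The submitters' processing notes name HISAT, StringTie, Cufflinks, GATK, Bowtie2 and RSEM, and versions are not given in the sources used here. The authors deposited an expected count per gene and group, summed over libraries and not normalized. For each library the authors deposited counts of clean reads and mapping rates in percent. The table also holds the authors' own log2 ratio, p-value and q-value per gene, which were not used. Another 22 columns name no library (20 of splicing, 2 of an example table) and were not used.

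The design had allowed for counts per library. Since the gene values were group sums, no test was made. Expected counts were used as deposited, without rounding. Ratios were computed on group totals without a pseudocount, with exact Clopper-Pearson intervals that cover counting error only. Differences between a pair of genes have intervals from the summed Poisson errors of the logs. Genes with at least 100 counts in both groups together formed the background. Gene lengths are those deposited. All 8 members matched RefSeq by gene ID, and coordinates and promoters are RefSeq's of GRCm38.p6, the build of the files. The members and lists were chosen with earlier results of these data known. Genes named were the 8 members, their isozymes and partners, pathway genes past 2-fold, and the highest and lowest of each list. Akr1b3, Pfkfb1, Pfkfb2, Tigar, G6pc and Pck2 were named after their values were seen. Some genes that this rule names are not reported here. The computation was tested on simulated data. Alternatives were 7 further scalings, 1 added after seeing the data (the sum of counts per base of length), other fold limits, minimums and a pseudocount of 1. Scripts ran under Python 3.11.15 with scipy 1.17.1, pandas 2.3.3, numpy 2.4.6 and, for plots, matplotlib 3.10.9.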

Additional observations from a re-analysis of the deposited data

Results flagged for a closer look

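Control replicate 3 stood apart from the other 6 control libraries on both mapping rates. Of its clean reads 76.66% mapped to the genome, and the gap to the nearest library was 0.852 of the range of the group. To genes 64.33% mapped, a gap of 0.588 of the range. Gaps above 0.568 were counted as far, and 6 sets of values were examined, of which chance alone would mark about 1 in 20. This library is part of the control sum of every gene, and its part in the ratios of the 8 genes was not tested.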

How the results depend on the processing

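No paired analysis was possible because the gene values are group sums and carry no replicate numbers, and for the same reason no library could be left out. With the median of all genes set to 0, the total without the 50 top genes, the upper quartile, 500 genes of like length, 100 such genes, 200 genes of like length and level, or the sum of counts per base of length, the median of the 8 members went from 0.33 to 0.17, 0.23, 0.15, 0.17, 0.16, 0.12 and 0.48. Over the same settings except the last, Pfkl turned to -0.0656, -0.00227, -0.0799, -0.103, -0.102 and -0.135. Gapdh turned to -0.0253 with the median of all genes and -0.0396 with the upper quartile. Members past 1.2-fold higher went from 5 to 2 without the top genes and to 1 under the other shifts, except the sum per base, which gave 6. At 1.5-fold 1 was higher and 0 lower, and the sum per base left 0 lower in place of 1. The background share higher, 33.74%, was 10.94% with the median of all genes, 9.533% against like length and 57.12% per base, and the share lower, 11.38%, was 20.25%, 17.67% and 6.313%. It was 18.11% with no minimum of counts. Pathway genes higher went from 35 to 12, 10 and 62, and lower from 11 to 18, 17 and 2, in that order. Depth does not limit the 8 genes, since each had at least 3696 counts in a group, but nothing bounds the spread between pools.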

Other observations

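Gapdh is widely used to normalise RT-qPCR, as are other genes that serve all cells. Of 12 such reference genes, 2 were past 1.2-fold higher and 1 lower, against 33.7% and 11.4% of all genes. Relative to genes of like length 1 was higher and 2 were lower, against 9.53% and 17.7%. Their median log2 ratio was 0.08, and Gapdh lay at 0.14. The study's own RT-qPCR was normalised to the average of Ppib and Tbp. Ppib, which encodes a cyclophilin of the endoplasmic reticulum, had 31948 counts in control livers and 21599 with erythrodiol. Its log2 ratio was -0.59, or -0.45 on the like-length scale. Tbp, the TATA-binding protein, had a log2 ratio of 0.31, Actb 0.09 and Rplp0, a ribosomal protein gene, -0.01. Set against Ppib the 8 genes would therefore be higher than on the scale of group totals, and set against Tbp lower. The ratio of Tbp was that of Slc2a2, 0.31, and close to those of Gckr (0.34), Gpi1 (0.35) and Pklr (0.38). Mlxipl, at 0.60, lay well above it. The reference genes were chosen after earlier results of these data were known.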
